A study of Mus musculus with 4 samples.

Results

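This is an account of 10 mouse genes that act on RNA in germ cells or carry the testis-expressed (Tex) name: Ddx4, Dazl, Dnd1, Nxf2, Rnf17, Stk31, Tex14, Tex15, Tex19.1 and Tex101. They were taken by symbol from the array platform's annotation, which gave 15 probe sets for the 10 genes among 45037 probe sets and 18193 genes in all. Dazl and Stk31 had 2 probe sets each, Rnf17 had 4 and the other 7 genes had 1.

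The RNA came from 4 cultures of mouse cells, with 1 array for each. GS (germline stem) cells are testis-derived spermatogonial stem cells kept in long-term culture. From such cultures mGS (multipotent germline stem) cells can emerge, which resemble embryonic stem cells. The embryonic stem (ES) cells were of the R1 line. The last culture, titled with the mouse strain ICR, was of GS cells from Trp53 knockout mice; the labels name no strain for the other groups, and no ages or passage numbers. Both GS cultures were grown in a medium based on StemPro-34, and both the mGS and the ES cells in ordinary ES cell medium, so cell type and medium cannot be told apart. With 1 array in each group there was no replicate, no test was possible, and the number of arrays limits every value below. In a culture, fewer germ cells and less RNA of a gene per cell cannot be told apart.

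Germ cells keep much of their RNA control in proteins that other cells lack. DDX4 is an RNA helicase of the germ granule, the body of RNA and protein beside the nucleus where small piRNAs are made. DAZL and DND1 bind messenger RNAs and control their translation and decay, and NXF2 belongs to the family of proteins that carry messenger RNA out of the nucleus. RNF17 and STK31 carry Tudor domains, which dock germ granule proteins. The Tex genes share a name but not a protein family: TEX14 holds open the bridges between sister germ cells, TEX15 serves meiotic recombination and transposon silencing, TEX19.1 restrains retrotransposons and is also made in pluripotent cells and placenta, and TEX101 is a surface glycoprotein of germ cells.

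Most of these genes differed together between the cultures, and their promoters are shown first. The RefSeq promoter table for GRCm38.p6 held 7 of the 10 genes (Dazl, Ddx4, Nxf2, Stk31, Tex14, Tex19.1 and Tex101), in 9 windows of 300 bases that run from 250 bases before the start site to 50 after it. The windows were searched on both strands for GCGGGA, a core of E2F sites, and for CACGTG, the E-box that MYC, MAX and their relatives bind; both are known from promoters that are silenced outside the germ line. GCGGGA occurred in a window of 4 of the 7 genes (Ddx4, Nxf2, Tex14 and Tex19.1) and in 19.98% of all 32851 windows in the table, and CACGTG in a window of 3 genes (Ddx4, Nxf2 and Stk31) and in 7.15% of all. Nxf2 and Stk31 had more than 1 window, so the counts by gene and the shares by window are not alike. Both motifs also contain CG, which was more frequent in these windows than in most, so the shares are no matched background. A match is a description of the letters and shows no binding. The motifs were picked after the values were seen, and their part in the differences was not tested. The windows below are those of a gene with both motifs, the gene with the most E-boxes, a gene with 1 E-box, a gene with neither, and the gene that departed from the others. Capitals mark the motifs, which overlap nowhere in these windows.
Ddx4, GRCm38.p6 chr13:112652261-112652560, minus strand: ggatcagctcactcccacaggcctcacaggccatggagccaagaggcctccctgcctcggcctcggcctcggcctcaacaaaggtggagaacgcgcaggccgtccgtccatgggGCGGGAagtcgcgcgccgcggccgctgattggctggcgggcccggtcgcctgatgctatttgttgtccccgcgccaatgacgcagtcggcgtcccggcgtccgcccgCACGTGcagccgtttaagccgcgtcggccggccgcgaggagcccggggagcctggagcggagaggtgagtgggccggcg
Nxf2, GRCm38.p6 chrX:134964705-134965004, minus strand: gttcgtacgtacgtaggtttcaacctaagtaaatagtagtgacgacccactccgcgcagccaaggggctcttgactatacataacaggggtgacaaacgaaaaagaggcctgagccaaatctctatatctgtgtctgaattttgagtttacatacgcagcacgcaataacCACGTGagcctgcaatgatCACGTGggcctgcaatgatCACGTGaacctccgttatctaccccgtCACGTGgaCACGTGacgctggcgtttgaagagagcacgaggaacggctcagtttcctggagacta
Stk31, GRCm38.p6 chr6:49395289-49395588, plus strand: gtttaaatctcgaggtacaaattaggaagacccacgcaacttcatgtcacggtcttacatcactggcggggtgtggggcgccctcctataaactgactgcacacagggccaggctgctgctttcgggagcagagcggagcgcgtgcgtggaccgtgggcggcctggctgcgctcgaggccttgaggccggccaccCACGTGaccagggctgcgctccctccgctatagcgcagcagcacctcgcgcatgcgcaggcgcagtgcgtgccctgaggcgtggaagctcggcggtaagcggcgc
Dazl, GRCm38.p6 chr17:50293571-50293870, minus strand: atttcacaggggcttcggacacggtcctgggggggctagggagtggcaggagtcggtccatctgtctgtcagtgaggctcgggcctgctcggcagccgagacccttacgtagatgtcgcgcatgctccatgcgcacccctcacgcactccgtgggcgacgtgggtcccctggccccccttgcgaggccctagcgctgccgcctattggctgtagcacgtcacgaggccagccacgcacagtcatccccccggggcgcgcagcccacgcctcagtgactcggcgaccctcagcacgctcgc
Tex19.1, GRCm38.p6 chr11:121145893-121146192, plus strand: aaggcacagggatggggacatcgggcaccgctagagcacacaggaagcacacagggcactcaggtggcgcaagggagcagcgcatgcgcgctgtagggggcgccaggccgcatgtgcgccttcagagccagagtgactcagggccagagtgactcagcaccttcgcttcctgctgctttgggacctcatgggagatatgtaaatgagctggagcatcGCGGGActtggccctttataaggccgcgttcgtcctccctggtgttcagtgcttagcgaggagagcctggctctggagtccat

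The Ddx4 window held both motifs, GCGGGA from 136 bases before the start site and CACGTG from 29 bases before it, a combination found in 1.99% of all windows. The Nxf2 window held CACGTG at 5 places, from 80, 61, 42, 15 and 7 bases before the start site. Of the 32851 windows only 5 held that many. The motifs from 80, 61 and 42 bases before the Nxf2 start site are parted by nearly the same bases, as in a tandem repeat. The other Nxf2 window in the table, for a second start site on the X chromosome, held GCGGGA once and no E-box. In the Tex19.1 window GCGGGA lay from 33 bases before the start site. The dinucleotide CG occurred 38 times in the Ddx4 window, 28 times in that of Dazl, and 29 and 28 times in those of Stk31. The count was 20 for Tex14, 20 and 17 for Nxf2, 19 for Tex101 and 16 for Tex19.1, against a median of 7 over all windows.

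The arrays were checked first. Signals are probe set intensities that were quantile normalized over the 4 arrays, in arbitrary units, and a signal under the array median of 82.7, the floor, was raised to it; a fold against the floor is a bound and is given as "at least". The deposited arrays had medians of 75.7 to 92.3. Markers of spermatogonial stem cells summed to 18257 on GS, 15921 on knockout, 2292 on mGS and 3004 on ES. Zbtb16 alone gave 8212 on GS and 10557 on knockout. Pou3f1, within 2-fold of GS on every array, gave 1471 on mGS and 2202 on ES. The median log2 difference of these markers between knockout and GS was -1.19. Of the pluripotency markers, 8 of 8 were above the floor on mGS and ES. On each of the others 5 of 8 were, with Nanog and Tdgf1 under it. Of 8 Sertoli cell, 4 Leydig cell, 5 leukocyte and 5 spermatid markers, at most 3 of any list were above the floor on an array. Amh, Fshr, Cyp17a1, Prm2 and Tnp1 were under it on all 4, whereas Wt1 (105 to 315) and Star (82.7, at the floor to the digits given, to 133) were not. The Leydig cell marker Cyp11a1 read 329 on mGS and was under the floor on GS, and the macrophage marker Cd68 read 969.6 on mGS against 177 on GS. The part of such cells in the differences was not tested. The signal of Trp53 was not analysed here, so the knockout label was not checked at its gene. The poly-A control dap read 271 on GS, 255 on mGS, 2545 on ES and 3055 on the knockout array. The hybridisation control bioC read 602 on the knockout array against 3066 to 3499 on the others. The other hybridisation controls bioB, bioDn and cre were also lowest on the knockout array. They read 676 against 1083 to 1213, 4902 against 7676 to 8239, and 24622 against 30058 to 33127. The part of these controls in the differences below was not tested.

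In the mGS culture most of these genes were far lower than in GS cells, Rnf17 was near its GS level and Tex19.1 was higher. Against GS, 8 of the 10 genes differed downward by 2-fold or more and 1 upward. Over all 11981 genes compared, 16.5% were lower and 15.3% higher by that much. The median log2 difference of the 10 genes was -3.64, against -0.04 over all genes. At least 10-fold lower were 5 of the 10 genes and 0.952% of all. Among spermatogonial markers 6 of 7 also stood at least 2-fold under GS in the mGS culture, and 8 of 8 pluripotency markers were higher; the part of cell composition in these values was not tested.

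**Figure D1:**
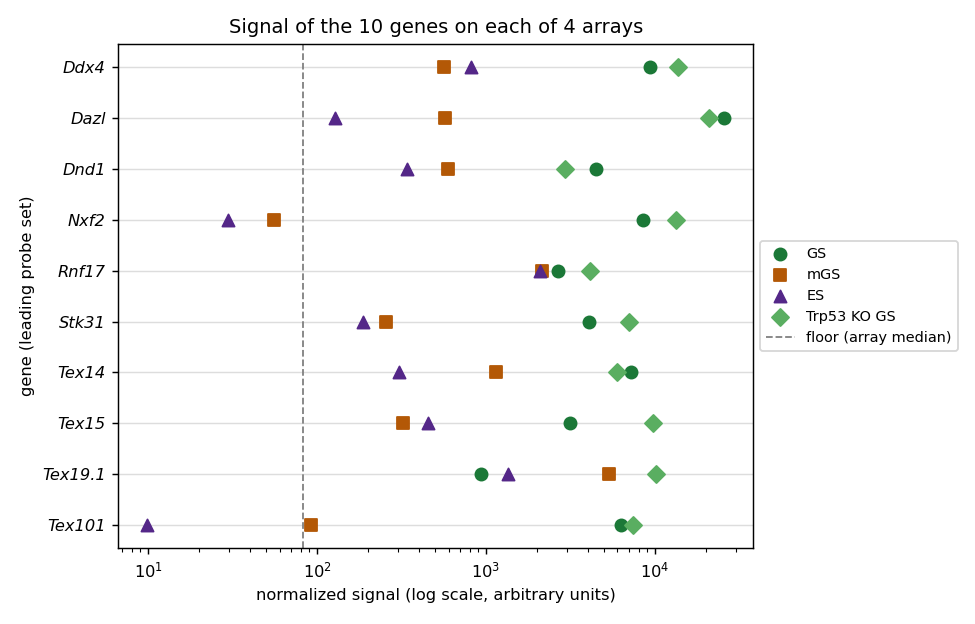
Normalized signal on a log scale (x axis) of the leading probe set of each of the 10 genes (y axis) on the GS, mGS, ES and Trp53 knockout GS arrays, 1 point per array, with the floor of 82.7 dashed. For all genes except Tex19.1 both GS arrays lie to the right of the mGS and ES arrays, and Nxf2 is under the floor on mGS and ES.

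The helicase and RNA-binding genes are described first. Ddx4 read 9369 on GS, 567 on mGS, 810 on ES and 13693 on the knockout array. The signal was 16.5-fold lower on mGS and 11.6-fold lower on ES than on GS, and both GS cultures stood well clear of both other cultures. Dazl gave 25675 on GS, 569 on mGS, 128 on ES and 21031 on the knockout array. It was high in both GS cultures, intermediate in mGS and lowest in ES, 45.2-fold lower on mGS than on GS and 201-fold lower on ES. Its other probe set gave 20263, 532, 81.2 and 18322 in the same order of arrays, with folds of 38.1 for mGS and at least 245 for ES. Dnd1 read 4466 on GS, 597 on mGS, 339 on ES and 2929 on the knockout array, which is 7.48-fold lower on mGS and 13.2-fold lower on ES than on GS. Of the 10 genes, Dazl and Dnd1, together with Tex14, had a lower signal on the knockout than on the GS array, each by less than 2-fold, and with the arrays centred on their medians Tex101 was lower as well.

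Nxf2, the X-linked export receptor gene, was under the floor on both the mGS and ES arrays. It read 8521 on GS, 55.9 on mGS, 29.6 on ES and 13351 on the knockout array. It was at least 103-fold lower on mGS and on ES than on GS, and with values raised to the floor no gene among the 11981 had a lower difference of mGS from GS, though other bounds, such as that of Tex13b, could be lower still. The general export receptor gene Nxf1, which all cells use, had log2 differences from GS of -0.56 on mGS and -0.73 on ES. Of 11 export receptors and cofactors compared, 9 lay within 2-fold between mGS and GS, 2 were higher (Nxt2 and Thoc5, 2.18-fold and 2.04-fold) and 0 lower. Nxf3, a further member of the family, read 388 on GS, 293 on mGS, 2.13 on ES and 320 on the knockout array, so that it was within 2-fold of GS on mGS and at least 4.69-fold lower on ES.

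The genes for Tudor domain proteins did not move alike. Stk31 read 4080.3 on GS, 256 on mGS, 187 on ES and 6996 on the knockout array, 15.9-fold lower on mGS and 21.8-fold lower on ES than on GS. Its other probe set, of a kind prone to cross-hybridisation, gave 4052, 281, 125 and 7798. The leading probe set of Rnf17 read 2681 on GS, 2153 on mGS, 2082 on ES and 4099 on the knockout array, so that mGS and ES stood within 1.29-fold of GS. A further pair of its probe sets also lay within 2-fold, with log2 differences from GS of -0.22 and -0.20 on mGS and of -0.57 and -0.997 on ES.

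The fourth Rnf17 probe set, 1459275_at, gave another picture, with 1879 on GS, 256 on mGS, 260.4 on ES and 4946 on the knockout array. By this probe set Rnf17 was 7.34-fold lower on mGS and 7.21-fold lower on ES than on GS, like Ddx4 and Stk31. The log2 differences of the 4 probe sets between mGS and GS spanned 2.68. Of 719 genes with 4 or more probe sets above the floor on both arrays, 20 had a span as wide, Rnf17 among them. For Dazl the span was 0.25 and for Stk31 0.14. Where the probe sets lie within the Rnf17 transcripts was not analysed here. With the mean of the 4 probe sets in place of the leading one, the log2 difference was -0.90 for mGS and -1.19 for ES, so that Rnf17 passed 2-fold on ES and the lower genes there numbered 9.

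**Figure D2:**
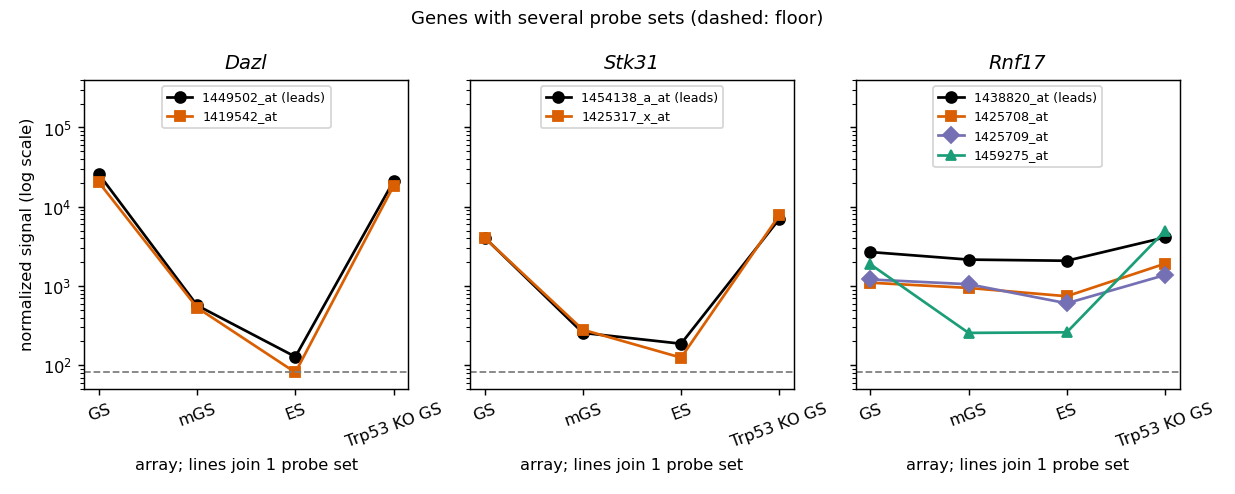
Normalized signal on a log scale (y axis) of every probe set of Dazl, Stk31 and Rnf17 on the 4 arrays (x axis); each line joins 1 probe set and the dashed line is the floor. The probe sets of Dazl and of Stk31 follow each other, whereas 1459275_at of Rnf17 reads 256 and 260.4 on mGS and ES while the other 3 read 605 to 2153.

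Of the Tex genes among the 10, 3 were lower on both the mGS and the ES array than on GS. Tex101 read 6287 on GS, 91.5 on mGS, 9.87 on ES and 7418 on the knockout array, just above the floor on mGS and under it on ES. It was 68.7-fold lower on mGS and at least 76.1-fold lower on ES than on GS. Tex14 read 7205 on GS, 1151 on mGS, 304 on ES and 5926 on the knockout array, and so was 6.26-fold lower on mGS but 23.7-fold lower on ES. Tex15 read 3135 on GS, 320.5 on mGS, 455 on ES and 9698 on the knockout array, 9.78-fold lower on mGS and 6.89-fold lower on ES than on GS. Tex14 thus followed the order of Dazl, with ES lowest, and Tex15 that of Ddx4, with mGS lowest, although for Ddx4 and Tex15 the mGS and ES arrays lay within 2-fold of each other.

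Tex19.1 departed from the other 9 genes. It read 934 on GS, 5314 on mGS, 1352 on ES and 10085 on the knockout array. The mGS and knockout arrays were high and the GS and ES arrays low, so neither the GS cultures nor the other pair read alike. What lies behind this order was not tested. For the knockout array, genotype, any strain difference and culture cannot be told apart. Tex19.1 was 5.69-fold higher on mGS and 10.8-fold higher on the knockout array than on GS, and 1.45-fold higher on ES. The lower of the mGS and knockout signals was 3.93-fold above the higher of the GS and ES signals. Of 12897 genes above the floor on an array, 0.194%, or 25 genes, had mGS and the knockout at least 2-fold above GS and ES in all cross pairs, and 1 gene besides Tex19.1 had a gap as wide. The nearest profile to that of Tex19.1 was A2m, which read 62.0 on GS, 641 on mGS, 28.3 on ES and 635 on the knockout array. The GS and ES signals of A2m were under the floor. Tex19.2, a near relative of Tex19.1, read 135 on GS, 147 on mGS, 65.6 on ES and 108 on the knockout array, close to the floor throughout. The values rest on 1 probe set, and the part of the dap and bioC controls, which differed between arrays as given above, was not tested.

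**Figure D3:**
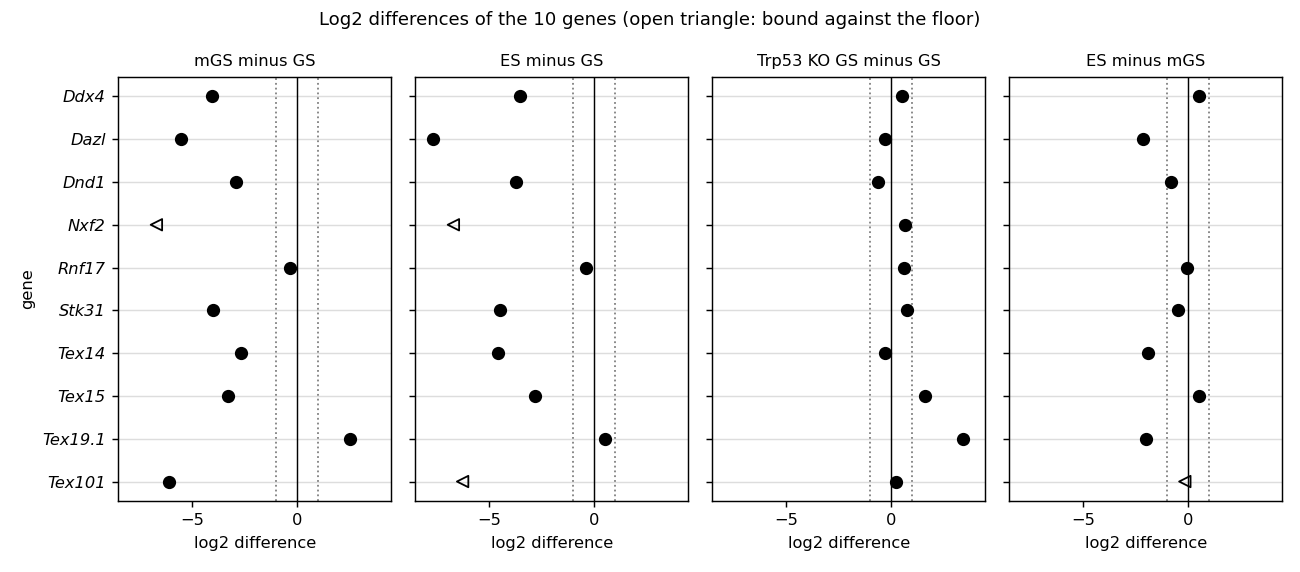
Log2 difference (x axis) of each of the 10 genes (y axis) in the 4 comparisons, with dotted lines at 2-fold; filled points are measured on both arrays and open triangles are bounds against the floor. Of the 10 genes, 8 lie left of the lower line on mGS and on ES against GS, while 8 lie between the lines on the knockout array against GS.

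The ES array, compared with the same GS array, gave a similar picture, and because the comparisons share that array their values are only set side by side. By 2-fold or more, 8 of the 10 genes were lower on ES and 0 higher, where 17.2% of 12107 genes were lower and 17.4% higher. The median log2 difference was -4.08, against -0.03 over all genes. At least 10-fold lower were 7 of the 10 genes and 1.02% of all. Fibroblast markers were at least 2-fold higher on ES than on GS in 8 of 8 compared, with a median of 3.48 and a summed signal of 25682 against 2784, and their part in the difference was not tested. Among differences measured above the floor on both arrays, that of Dazl, -7.65, was the lowest of the 12107, though bounds such as that of Nxf2 could be lower still. Taking the cultures as pairs, both GS arrays stood above both of the others for 9 of the 10 genes, a pattern found in 31.8% of 12897 genes; the reverse order held for 0 of the 10 and 26.9% of all. By at least 2-fold in all cross pairs it held for 8 of the 10 genes and 8.38% of all, and the reverse for 0 and 7.65%. The narrowest of these 8 gaps were those of Dnd1, 4.91-fold, and Tex14, 5.15-fold, and the widest those of Tex101, 68.7-fold, and Nxf2, at least 103-fold.

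**Figure D4:**
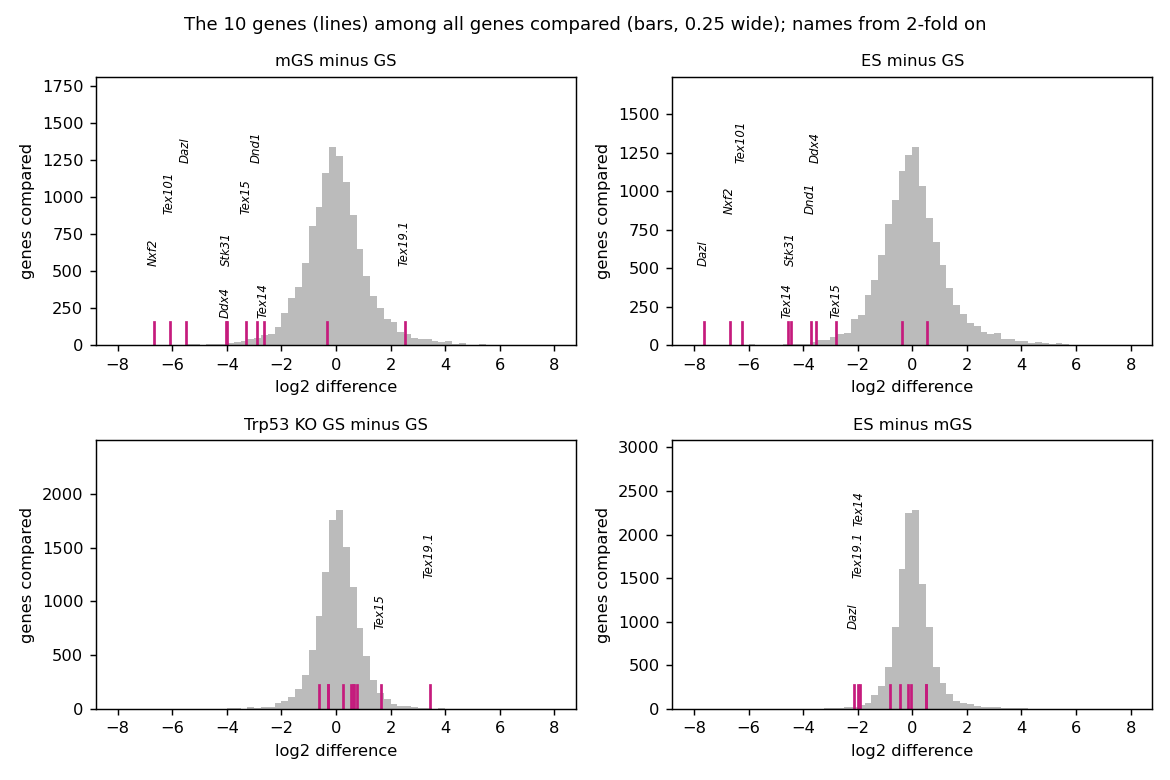
Number of genes (y axis) by log2 difference (x axis, bars 0.25 wide) in each comparison, with the 10 genes as lines at their values, bounds at the bound, and names given from 2-fold on. On mGS and ES against GS the lines lie in the left tail, except Rnf17 and Tex19.1; on the knockout array against GS most lie near the centre and Tex19.1 at 3.43.

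Between the ES and mGS arrays the remaining signal of several genes differed. Of 9 genes compared, 3 were at least 2-fold lower on ES, namely Dazl by 4.44-fold, Tex19.1 by 3.93-fold and Tex14 by 3.78-fold, and 0 were higher; over 11816 genes 5.13% were lower and 6.90% higher. Nxf2 was under the floor on both arrays and gave no difference. The other 6 genes lay within 2-fold, Ddx4 and Tex15 toward ES with log2 differences of 0.51 each and Dnd1 toward mGS with -0.82. The median was -0.45, against 0.00 over all genes. Tex101 counted within 2-fold because the floor bounded it; its signals of 91.5 and 9.87 gave a log2 difference of -3.21 without the floor. Of the 8 fibroblast markers compared, 7 were higher on the ES array by 2-fold or more, and the median over the 8 was 3.58 in log2. Their summed signal was 25682 on ES against 11143 on mGS. Most of the mGS sum came from Fn1, the 1 marker within 2-fold, which read 10096 on mGS and 9327 on ES. Spermatogonial markers lay within 2-fold in 6 of 6. The part of other cells in the difference was not tested.

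On the Trp53 knockout array all 10 genes were above the floor. Its title alone names a strain, ICR, so genotype, any strain difference and culture cannot be told apart in these values. Of the 10, 2 were at least 2-fold higher than in GS cells, Tex19.1 by 10.8-fold and Tex15 by 3.09-fold, and 0 were lower, where 9.77% of 11623 genes were higher and 6.93% lower. Only 6 genes of the 11623 had a higher difference than Tex19.1. The other 8 lay between 1.52-fold lower for Dnd1 and 1.71-fold higher for Stk31. The median of the 10 genes was 0.58 against 0.07 over all genes, and 0.15 with the arrays centred on their medians, a scaling that lowered the median of all genes by 0.16. Centring gave Tex19.1 a log2 difference of 2.92 in place of 3.43 and Tex15 one of 1.19 in place of 1.63. On the same arrays spermatogonial markers were lower in the knockout for 4 of 7, among them Lhx1, and none was higher. Pluripotency markers were within 2-fold for 5 of 6, with 1, Utf1, higher. The dap control differed between these arrays, as given above, and its part was not tested.

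Genes related to these 10 by name, protein family or role were taken from 8 lists. The Tudor domain and germ granule list was the nearest to the 10 genes. Of 16 genes compared, 9 stood 2-fold or more under GS on mGS and 0 above it (median -1.87), and on ES the counts were the same (median -2.53). The helicase gene Mov10l1 and the granule anchor gene Asz1 were 40.3-fold and 33.2-fold lower on mGS, and Tdrd7 and Tdrd1 at least 23.95-fold and 13.3-fold. Prmt5 and Wdr77, whose proteins methylate the arginines that Tudor domains recognise and work in all cells, lay within 2-fold. So did Tdrd3, Snd1 and Tdrd12 on mGS and ES, Tdrd12 with 1271 on GS, 1025 on mGS and 1712 on ES. Tdrd9 and Piwil1 counted as within 2-fold there only as bounds against the floor. In the knockout 7 of the 16 stood 2-fold or more above GS and 0 under it, where 9.77% and 6.93% of 11623 genes did. Tdrd9, 11.6-fold, and Piwil4, 5.76-fold, led them, although Tdrd9 read only 121 on GS, near the floor. The median was 0.73. No value with the arrays centred on their medians, which lowered the knockout differences of the 10 genes, is given for this list. Mael and Piwil2, of the piRNA pathway, were 7.96-fold and 4.25-fold lower on ES than on mGS.

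Of 31 other Tex genes measured, 19 were under the floor on all 4 arrays. Of the 11 compared between mGS and GS, 5 stood 2-fold or more under GS and 0 above it (median -0.54). Tex13b was at least 60.2-fold lower, Tex12, a synaptonemal complex gene, 31.05-fold, Tex11, an X-linked meiotic gene, 22.7-fold and Tex16 at least 4.54-fold. Tex2, Tex9, Tex10, Tex261 and Tex264 lay within 2-fold on mGS. In the knockout 1 of 11, Tex16, stood 2-fold or more above GS and 0 under it (median 0.02).

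**Figure D5:**
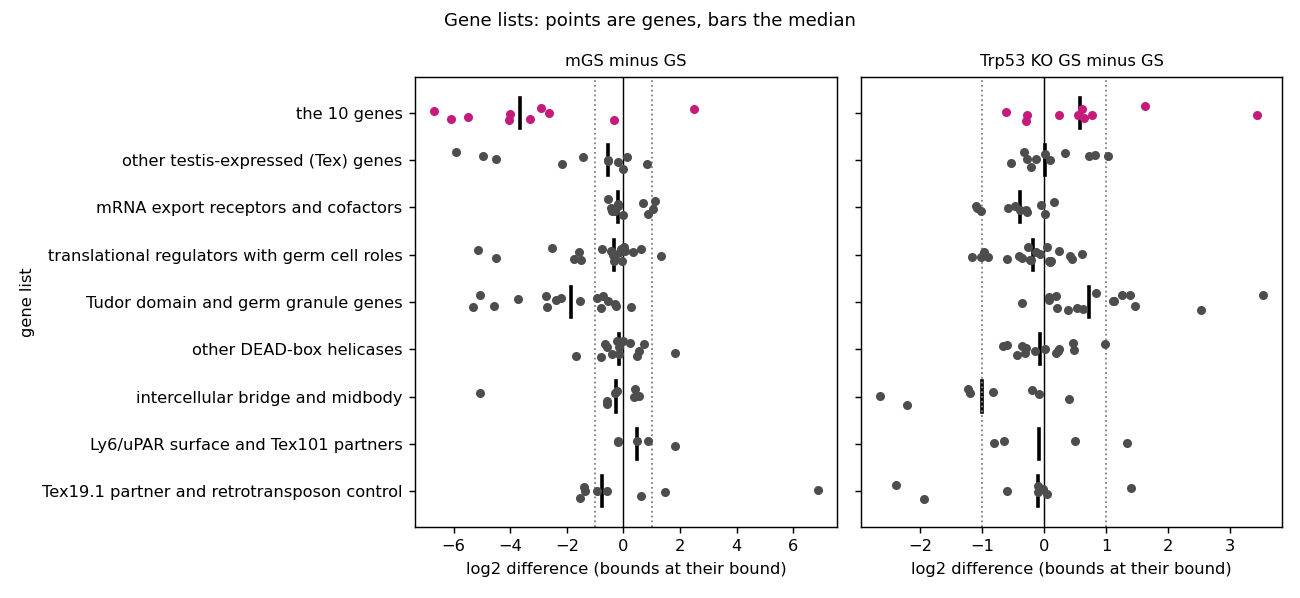
Log2 difference (x axis) of the genes of each list (y axis), points being genes and bars the list median, for mGS minus GS on the left and knockout minus GS on the right, with dotted lines at 2-fold. The 8 related lists are shown with the 10 genes, without the marker lists. Among those shown, the 10 genes and the Tudor domain and germ granule list have the lowest medians on the left, -3.64 and -1.87, and the highest on the right, 0.58 and 0.73.

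Translational regulators differed in both directions. Of 20 compared, 6 stood 2-fold or more under GS on mGS and 1, Patl2, above it (median -0.34). The lower ones included Rbm46, a germ cell RNA-binding gene, 35.3-fold, Cpeb1, which controls poly(A) tails in germ cells, at least 22.6-fold, and Msi1, at least 5.69-fold. Boll, a relative of Dazl, read 552 on GS, 197 on mGS, 39.6 on ES and 589 on the knockout array. Pum2, Dazap1, Pabpc1 and Celf1, expressed in most cells, lay within 2-fold in all 4 comparisons. In the knockout 2 of 20, Elavl2 and Rbm46, stood 2-fold or more under GS and 0 above it (median -0.17). Of 14 other DEAD-box helicases, 12 lay within 2-fold on mGS; the testis helicase Ddx25 was 3.16-fold lower and Ddx56 3.55-fold higher, and the median was -0.16. Of 8 intercellular bridge and midbody genes, 7 lay within 2-fold on mGS and Rbm44, whose protein binds TEX14 at the bridge, was 33.4-fold lower, with a median of -0.27. In the knockout 4 of those 8 stood 2-fold or more under GS, Plk1 by 6.27-fold and Kif23 by 4.64-fold, and the median was -1.01, whereas Tex14 itself stood at -0.28.

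Profiles most like those of the 10 genes were sought over the 4 arrays. The measure was the smallest root mean square distance between log2 values after each gene's mean was removed. Signals under the floor were raised to it first, so they count as equal in these distances. Among others this holds for Nxf2, Tktl1 and Taf9b on mGS and ES, and for A2m on GS and ES. Among 12306 other named genes, the nearest to Dazl was Slc25a31, the testis ADP/ATP carrier gene, at 0.13, the nearest to Ddx4 was Prkar2b at 0.17 and the nearest to Dnd1 was Rec114, a meiotic recombination gene, at 0.12. Tktl1 was nearest to Nxf2 at 0.26, and Taf9b to Tex101 at 0.14. Rnf227 was nearest to Stk31 at 0.16, followed by the synaptonemal gene Sycp2 at 0.18. For Tex14 the nearest were Fgd6, Tdrd5 and Dmrt1, at 0.22, 0.23 and 0.24, and for Tex15 the nearest was Sox3 at 0.10. Tex19.1 had no neighbour closer than A2m at 0.40. Among the 10 genes themselves the nearest pairs were Nxf2 with Tex101, at 0.39, and Ddx4 with Tex15, at 0.40. With 4 arrays such likeness describes these cultures only.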

How the data were processed

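RNA from 4 cultures was hybridised to Affymetrix arrays, 1 array per group, after Trizol extraction and biotin labelling as cRNA, per the labels' protocols. What the authors deposited is a linear intensity for each probe set on each array; the labels name no software. The deposited values have the same mean on all arrays once 2% is trimmed from each end. Of 45101 probe sets, 64 controls were left out of the normalization. The log2 intensities were quantile normalized, which hides any change in total RNA, and values under the array median were raised to it. Symbols came from the platform annotation, updated by gene identifier to GRCm38.p6; of 45037 probe sets, 34945 had 1 symbol, 932 several (left out) and 9160 were not listed. A gene took its probe set of highest mean. Differences were counted from 2-fold. Named besides the 10 genes were, by rule, up to 4 list genes per direction at least 4-fold apart, and the 3 nearest profiles of each gene with a range of 4-fold or more; other list genes were named after their values were seen. The 10 genes, the 8 lists of related genes and the 7 of markers were chosen with earlier results of these data known, and the motifs after the values were seen. The normalization, the differences and the comparison of pairs were tested on simulated data with little noise and changes in a small share of probe sets. Other steps, such as the choice of probe set and the search for near profiles, were not tested in this way. Python 3.11.15 was used, with pandas 2.3.3, numpy 2.4.6, matplotlib 3.10.9 and scipy 1.17.1.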

Additional observations from a re-analysis of the deposited data

How the results depend on the processing

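The counts of the 10 genes at least 2-fold apart were recomputed with the values as deposited, arrays centred on their medians, probe sets averaged per gene, no _x_at or _s_at probe sets, the floor moved to the 60th or the 30th percentile or removed, 32 added as a pseudocount and probe sets with several symbols kept. None moved by over 1.5 times: lower on ES than GS were 8 or 9, lower on ES than mGS 3 or 4. Of 350 recomputed log2 differences of single genes, 333 moved by less than the spread between probe sets of a gene (a standard deviation of 0.45 to 0.61) and none changed sign from a difference of 2-fold or more. Most that moved were Nxf2 and Tex101, whose bounds follow the floor: Nxf2 on mGS stood at -7.25 with the lower floor and -5.79 with the higher, and Tex101 on ES at -7.71 and -5.35. Over all genes, centring moved the median difference of ES from mGS by -0.11 and that of knockout from GS by -0.16. No paired analysis was possible because each group has 1 array, and no replicate could be left out for the same reason.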

Other observations

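Further genes were grouped by the surface role of Tex101 and the retrotransposon role of Tex19.1. Of 5 Ly6/uPAR and Tex101 partner genes compared between mGS and GS, 1, Ly6e, was at least 2-fold higher, 3.53-fold, and 0 were lower, with a median log2 difference of 0.49. Of 8 genes of retrotransposon control, 2 were higher on mGS, Dnmt3l by at least 117-fold and Zfp809 by 2.80-fold, and 3 were lower, the maintenance methylation genes Dnmt1 and Uhrf1 and the helicase gene Hells, with log2 differences of -1.36, -1.39 and -1.55; the median was -0.74. Ubr2, whose ubiquitin ligase binds TEX19.1, lay within 2-fold of GS on mGS, ES and knockout, while Tex19.1 was 5.69-fold and 10.8-fold higher on mGS and knockout. On the knockout array Uhrf1 and Zfp809 were 5.24-fold and 3.83-fold lower and Dnmt3l at least 2.64-fold higher than on GS.

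Chromosomes were looked up after the neighbours of the 10 genes had been seen. Of the 24 distinct neighbours, 6 lay on the X chromosome, namely Asb9, Scml2, Sox3, Taf7l, Taf9b and Tktl1, against 3.35% of the candidates. Of the 55 genes at least 10-fold higher on both GS arrays than on both the mGS and ES arrays, 12, or 21.8%, lay on the X chromosome; at 2-fold the share was 4.995% of 1081 genes, and over all 12876 genes with a chromosome 3.39%. Nxf2 was the only X-linked gene of the 10. Nxf2 and the neighbours Asb9, Scml2, Taf7l, Taf9b and Tktl1 are among the 12, so these counts overlap.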
